A study of Arabidopsis thaliana with 21 samples.

Results

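The 10 genes described here are the SPL transcription factors of Arabidopsis thaliana that carry a target site of the microRNA miR156, namely SPL2, SPL3, SPL4, SPL5, SPL6, SPL9, SPL10, SPL11, SPL13 and SPL15. They were chosen by name, as every gene model whose locus is that of one of these factors, and all 10 were found among 26496 models with counts. Hand-dissected embryos of the late heart stage, at which cotyledons are forming, gave 21 RNA libraries of 7 genotypes with 3 biological replicates each. Wild-type embryos came from Columbia-0 (Col-0) and from Landsberg erecta (Ler). The mutants asil1-1, asil2-1 and asil1-1 asil2-1 were in Col-0, asil2-2 was in Ler, and asil1-1 asil2-2 was in a mixed Columbia-0/Landsberg erecta background. These alleles affect ASIL1 and ASIL2, trihelix proteins that bind DNA and hold back seed maturation genes in young embryos and seedlings. The lesion of each allele, the number of embryos in a library and the parent plants were not given in the sources used here.

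SPL proteins (SQUAMOSA PROMOTER BINDING PROTEIN-LIKE) bind DNA through a shared zinc-containing domain and switch on genes of leaf development, of the change from juvenile to adult growth and of flowering. miR156 and its relative miR157 pair with a site in the SPL messenger RNA and, within an ARGONAUTE complex, lead to its cleavage and to less translation. In Arabidopsis embryos that cannot make microRNAs, SPL10 and SPL11 are known to be strongly derepressed and maturation genes come on too early, and ASIL1 and ASIL2 have been placed among the factors that act on the timing of this programme.

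The microRNA and its sites show what defines these genes. The mature sequence of miR156, read from the RefSeq annotation of the TAIR10.1 genome, is the same at 6 loci, miR156a to miR156f, and its seed (bases 2 to 8, in capitals) is shared by 11 of the 14 annotated members of the miR156 and miR157 family. The other 3, miR157a to miR157c, start with an added base, so that their seed is shifted by 1 position.
miR156a: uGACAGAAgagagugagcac
miR157a: uUGACAGAagauagagagcac
DNA fully complementary to miR156a: gtgctcactctcttctgtca

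Each SPL model holds a close match to that 20-base complement, and positions where the gene differs from it are in capitals in the next lines.
SPL2, SPL6, SPL9, SPL10, SPL11, SPL13 and SPL15: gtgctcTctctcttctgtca
SPL3: TtgctTactctcttctgtca
SPL4: CtgctcTctctcttctgtca
SPL5: CCgctcTctctcttctgtca
The 7 genes with the longer coding sequences thus share an identical site with 1 mismatch, which lies in the coding sequence of the last exon. In SPL3, SPL4 and SPL5, which encode small proteins, the site has 2, 2 and 3 mismatches and lies in the 3' UTR, also in the last exon. It starts 50, 10 and 7 bases after the coding sequence ends. Among 27407 protein-coding models searched on their own strand, 13 models, or 0.0474%, held a site with at most 3 mismatches. These were the 10 genes, SPL13B (AT5G50670), a near-identical copy of SPL13, and the loci AT3G28690 and AT3G47170, which were named because the search returned them. The best match in the other SPL genes, SPL1, SPL7, SPL8, SPL12, SPL14 and SPL16, had 6 to 8 mismatches.

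**Figure D1:**
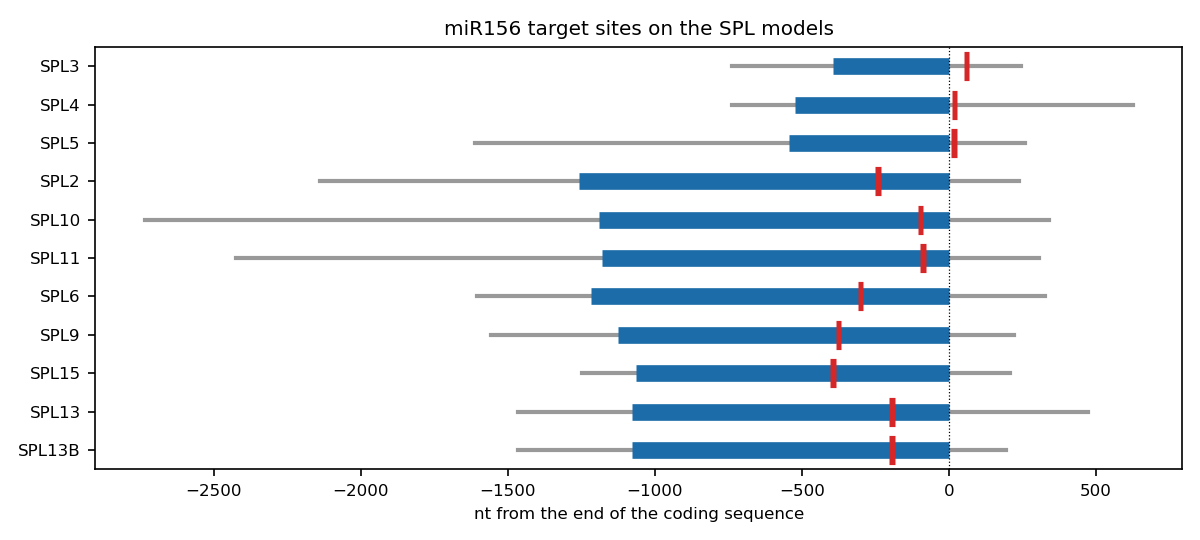
miR156 target sites (red) on the SPL models, with the coding sequence in blue and the rest of the model in grey, in bases from the end of the coding sequence. The sites of SPL3, SPL4 and SPL5 lie after that end, by 50, 10 and 7 bases, and all others lie before it.

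In TAIR10.1 coordinates the sites are at chr5:17360758-17360777 in SPL2 (AT5G43270, minus strand, exon 5 of 5), chr2:14305878-14305897 in SPL3 (AT2G33810, plus strand, exon 2 of 2) and chr1:19807090-19807109 in SPL4 (AT1G53160, plus strand, exon 2 of 2). SPL5 (AT3G15270, minus strand, exon 2 of 2) has its site at chr3:5140598-5140617 and SPL6 (AT1G69170, plus strand, exon 4 of 4) at chr1:26006731-26006750. In SPL9 (AT2G42200, plus strand, exon 3 of 3) it is at chr2:17589066-17589085. SPL10 (AT1G27370, minus strand, exon 4 of 4) and SPL11 (AT1G27360, plus strand, exon 4 of 4) are neighbours on chromosome 1, with sites at chr1:9505541-9505560 and chr1:9503618-9503637. The remaining sites are at chr5:20582738-20582757 in SPL13 (AT5G50570, minus strand, exon 4 of 4) and chr3:21444834-21444853 in SPL15 (AT3G57920, minus strand, exon 3 of 3). The annotated miR156i and miR156j lie on the opposite strand exactly over the sites of SPL4 and SPL9.

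Several of these genes share bases with a locus on the opposite strand, and reads of such partners cannot be told apart, because whether counting used the strand was not given in the sources used here. All 1455 bases of the SPL15 model lie under AT3G57910, which had 1003 counts in all against 375 for SPL15. Of the 1872 bases of SPL5, 477 lie under AT3G15260, which had 4042 counts against 470 for SPL5. SPL3 overlaps a long noncoding RNA over 937 bases, SPL4 and SPL9 overlap MIR156i and MIR156j over 197 and 68 bases, and SPL6 and SPL13 overlap a partner over 19 and 21 bases. SPL2, SPL10 and SPL11 overlap no other annotated locus, and none of these 3 shares a stretch of 50 bases with another SPL gene. By contrast 85.2% of the 50-base stretches of SPL13 are also in SPL13B, and SPL13B had no count in any library, so values of SPL13 may hold reads of both copies.

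ASIL1 is known to bind a GT element, and the letters GTGATT were searched on both strands from 250 bases before to 50 after each gene start. They were present in 3 of the 10 promoters, those of SPL3, SPL5 and SPL15, and in 18.5% of 27443 promoters of nuclear protein-coding genes. Such a match describes the letters and is no evidence of binding.

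Libraries held 1.49 M to 8.19 M counts (M, 1000000), of which 30 to 306 fell on the 10 genes, so counting error is a large part of every value. Values are given as counts per 1000000 (CPM) of the library size scaled by the trimmed mean of M values (TMM). ASIL1 lay between 1.28 and 5.75 CPM in the 9 libraries with asil1-1 and from 32.4 CPM upwards in the others. ASIL2 was at most 13.5 CPM with asil2-2, but from 37.6 to 61.5 CPM in the 6 libraries labelled asil2-1 against 48.2 to 56.0 CPM in Col-0, so its counts do not check that label. A pair of libraries stood apart and are named wherever they matter. In replicate 1 of asil1-1 asil2-1 a single locus, AT5G18610, took 45.7% of all counts, and the median correlation of this library with the others was 0.750. Replicate 2 of asil1-1 asil2-2 was the shallowest library, and its median correlation was 0.851, against 0.934 or more for the other 19. All 10 embryo markers had counts in every genotype, with a sum of 515 to 1136 CPM, while endosperm markers summed to 17.8 to 97.6 CPM and seed coat markers to 150 to 403 CPM. The lowest embryo sum and the highest endosperm sum were in replicate 1 of asil1-1 asil2-1. The highest seed coat sum was in replicate 2 of asil1-1 asil2-2.

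The miR156-targeted SPL genes were low in wild-type embryos. Per kb of model, their mean level in Col-0 ran from 0.0416 CPM per kb for SPL4 to 3.80 CPM per kb for SPL2, and all 10 lay below the median model, at 4.77 CPM per kb. Their places among 26075 models ran from the 10.5th to the 46.7th percentile. Lengths are those of TAIR10.1, and the lengths of the models the authors counted were not used.

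In descending order, the 6 best-detected genes in Col-0 were SPL2 (3.80 ± 0.33 CPM per kb, SD, n = 3), SPL10 (3.70 ± 1.18), SPL6 (3.34 ± 0.18), SPL11 (2.76 ± 1.03), SPL15 (2.70 ± 0.20) and SPL5 (2.43 ± 0.54). Neighbours in this order differed by less than the spread between replicates. SPL3 (0.547 ± 0.343 CPM per kb) was the next, and its distance to SPL5 exceeded both SDs. It was followed by SPL9 (0.486 ± 0.010), SPL13 (0.310 ± 0.223) and SPL4, which had a single count in the 3 Col-0 libraries.

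The SPL genes with no miR156 site were mostly far higher in the same libraries. In Col-0, SPL1 and SPL12, known from heat tolerance of inflorescences, stood at 41.6 ± 3.80 and 19.9 ± 0.91 CPM per kb. SPL14 stood at 27.3 ± 1.11, SPL7, the regulator of copper homeostasis, at 15.6 ± 1.87, and SPL16 at 11.2 ± 0.24 CPM per kb. The exception was SPL8, a gene of pollen sac development, at 0.497 ± 0.388 CPM per kb, within the range of the targeted genes. Summed per kb, the 6 genes without a site were at 5.77 ± 0.28 times the 10 targeted genes in Col-0 and at 7.87 ± 2.30 times in Ler, with no test of this description. Across the 21 libraries the ratio ran from 2.64, in replicate 1 of asil1-1 asil2-1, to 13.0, in replicate 2 of asil1-1 asil2-2, which are the libraries that stand apart.

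**Figure D2:**
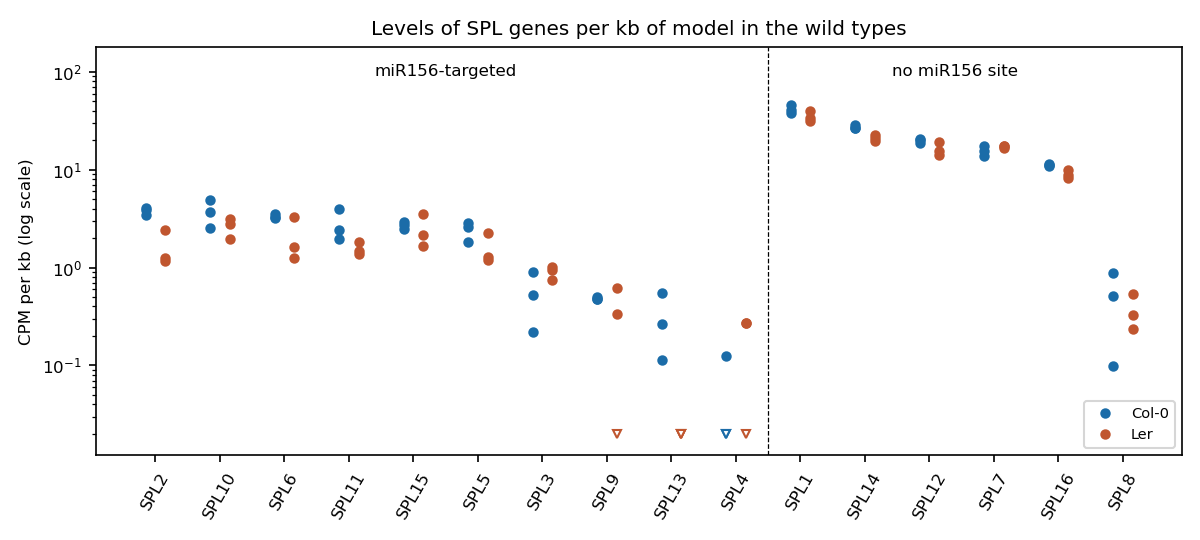
Levels of the SPL genes in the 3 Col-0 and 3 Ler libraries in CPM per kb of model, on a log axis, 1 point per library, with open triangles at the foot for libraries with no count. Of the genes with no miR156 site, 5 lie above every targeted gene, and SPL8 lies among the low ones.

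No targeted SPL gene passed the test in any comparison. A model was tested if it passed a filter on low counts (at least 10 counts, scaled to library size, in as many libraries as a group has), which 18269 models did. SPL2, SPL5, SPL6, SPL10, SPL11 and SPL15 passed this filter and SPL3, SPL4, SPL9 and SPL13 did not. A call was an adjusted p under 0.05 in edgeR's quasi-likelihood test with Benjamini-Hochberg adjustment over all 18269 models, and p-values measure only the spread between these libraries. The share of all models called was 0.0328% in asil1-1, 0.0109% in asil2-1, 0.0219% in asil1-1 asil2-1 and 2.28% in asil1-1 asil2-2, each against Col-0. It was 0.0712% in asil2-2 and 2.9% in asil1-1 asil2-2, both against Ler, 4.96% in Ler against Col-0 and 0.0109% in the interaction of asil1-1 and asil2-1. At these shares, no call among 6 genes is near the background in every comparison. At an unadjusted p under 0.05 there was 1 gene in asil1-1 asil2-1 against Col-0, 1 in Ler against Col-0 and none in the other 6 comparisons, where 16.1% and 14.8% of all models reached this in the first and second. Without the pair of libraries that stands apart there were 1 in asil1-1, 2 in the libraries labelled asil2-1, 2 in asil1-1 asil2-1, 1 in asil1-1 asil2-2 and 2 in Ler, each against Col-0. The shares of all models were then 7.52%, 6.61%, 12.5%, 18.5% and 25.6%. DESeq2 called 1 gene, SPL2 in Ler against Col-0, where it called 6.94% of all models, and none elsewhere. Complete separation of 2 groups of libraries is also common over all tested models: it was found for 13.8% in asil1-1, 11.8% in asil2-1, 18.2% in asil1-1 asil2-1, 21.5% in asil1-1 asil2-2 and 30.4% in Ler, each against Col-0.

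**Figure D3:**
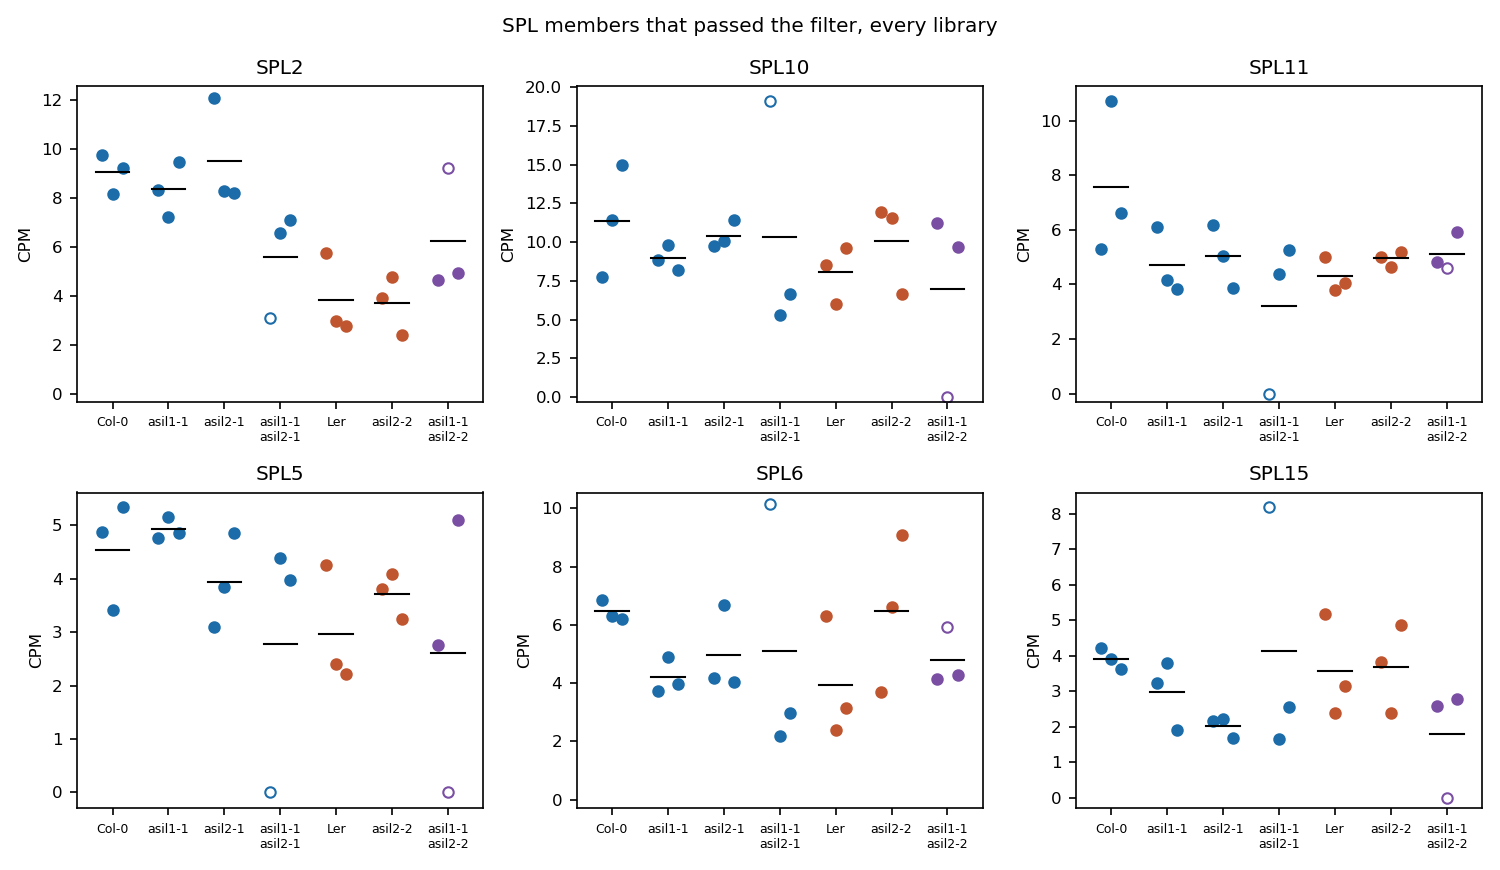
CPM of the 6 targeted SPL genes that passed the filter, 1 point per library with the group mean as a bar, Col-0 genotypes in blue, Ler genotypes in orange, the mixed background in purple and the libraries that stand apart as open circles. SPL2 lies at 2.43 to 5.74 CPM in the 6 Ler libraries, and the open circles often give the highest or lowest value of a genotype.

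SPL2, SPL10 and SPL11 are close relatives that act together in lateral organ and shoot development, and SPL10 and SPL11 are the members best known from embryos. SPL2 had 9.74, 8.18 and 9.20 CPM in the Col-0 libraries, 8.33, 7.24 and 9.48 CPM in asil1-1, and 12.1, 8.28 and 8.21 CPM in the libraries labelled asil2-1. These 9 libraries overlapped throughout. In asil1-1 asil2-1 the values were 3.12, 6.58 and 7.10 CPM, all under the lowest Col-0 value. In the Ler libraries SPL2 had 5.74, 3.001 and 2.78 CPM and in asil2-2 it had 3.94, 4.79 and 2.43 CPM. The Ler libraries lay under every Col-0 library and overlapped with those of asil2-2. The mixed asil1-1 asil2-2 libraries had 4.66, 9.21 and 4.93 CPM, and the middle value rests on 14 counts in the shallowest library.

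SPL2 in Ler was the nearest of these genes to a call. It was lower than in Col-0 by a log2 fold change of -1.23 ± 0.36 (SE), with a 95% interval from -1.98 to -0.47 and adjusted p = 0.0548 (edgeR's quasi-likelihood test). Lower values were found in 3 of 3 Ler libraries. The adjusted p was 0.0155 with DESeq2, 0.0174 with only the compared libraries in edgeR's fit, 0.0285 without Ler replicate 1 (log2 fold change -1.64), and 0.00626 without the 2 libraries that stand apart (-1.22). The shares of all tested models called in these settings were 6.94%, 12.8% of 16768, 3.02% of 18855 and 12.8% of 18332, beside 4.96% in the test as reported. Over all alternatives the adjusted p ran from 0.00626 to 0.258. By ecotype, SPL2 ran from 2.43 to 5.74 CPM (median 3.47) over the 6 libraries in Ler and from 3.12 to 12.1 CPM (median 8.25) over the 12 in Col-0. The low end of the latter was replicate 1 of asil1-1 asil2-1, without which the range started at 6.58 CPM. TAIR10, which the submitters' processing notes name, is the Col-0 sequence, so for Ler a lower transcript level and fewer reads aligned to another ecotype's sequence cannot be told apart. Endosperm markers summed to 17.8 to 33.4 CPM in Ler and to 42.4 to 60.7 CPM in Col-0, and their part in this difference was not tested. Of these markers IKU2 had no count in Ler, but only 2, 2 and 4 counts in the Col-0 libraries. In bulk embryos, fewer cells of a type and less RNA per cell cannot be told apart either.

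SPL10 had the most counts of the 10 genes, 1149 in all. Its values were 7.75, 11.4 and 15.0 CPM in Col-0, 8.84, 9.82 and 8.20 CPM in asil1-1 and 9.76, 10.1 and 11.4 CPM in the libraries labelled asil2-1. The Col-0 libraries alone spanned the other 6. In asil1-1 asil2-1, replicate 1 had 19.1 CPM, the highest value of all 21 libraries, while the others had 5.30 and 6.67 CPM, under every Col-0 library. Ler had 8.52, 6.001 and 9.62 CPM, asil2-2 had 11.9, 11.6 and 6.65 CPM, and asil1-1 asil2-2 had 11.2, 0 and 9.70 CPM. The 0 was again in the shallowest library, where 3 counts would be 1.97 CPM.

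SPL11, the neighbour and closest relative of SPL10, had 5.31, 10.7 and 6.63 CPM in Col-0, 6.12, 4.17 and 3.84 CPM in asil1-1 and 6.19, 5.05 and 3.86 CPM in the libraries labelled asil2-1. Both single mutants overlapped with Col-0 by 1 library. In asil1-1 asil2-1 it had 0, 4.39 and 5.25 CPM, in Ler 5.00, 3.80 and 4.07 CPM, in asil2-2 5.01, 4.65 and 5.19 CPM, and in asil1-1 asil2-2 4.84, 4.61 and 5.92 CPM. SPL11 thus lay under every Col-0 library in asil1-1 asil2-1 and in Ler. Its log2 fold change in asil1-1 asil2-1 against Col-0 was -1.09 ± 0.49 (95% interval -2.11 to -0.06, edgeR's quasi-likelihood test, unadjusted p = 0.0388, adjusted p = 0.290). Without the 2 libraries that stand apart it was -0.66 (adjusted p = 0.400), since the library with no SPL11 count was one of them.

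SPL5, which with SPL3 and SPL4 promotes flowering, had 4.87, 3.41 and 5.35 CPM in Col-0, 4.76, 5.16 and 4.87 CPM in asil1-1 and 3.10, 3.84 and 4.86 CPM in the libraries labelled asil2-1. All 3 groups overlapped. It had 0, 4.39 and 3.97 CPM in asil1-1 asil2-1, 4.26, 2.40 and 2.22 CPM in Ler, 3.82, 4.09 and 3.25 CPM in asil2-2 and 2.76, 0 and 5.10 CPM in asil1-1 asil2-2. Both zeros were in the libraries that stand apart.

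SPL6, which contributes to immunity in leaves, had 6.86, 6.30 and 6.21 CPM in Col-0 and 3.74, 4.91 and 3.97 CPM in asil1-1, and these groups did not overlap. The libraries labelled asil2-1 had 4.18, 6.67 and 4.02 CPM, those of asil1-1 asil2-1 had 10.1, 2.19 and 2.98 CPM, and those of asil1-1 asil2-2 had 4.14, 5.92 and 4.27 CPM. The last group lay under every Col-0 library, and the highest value of all 21 was in replicate 1 of asil1-1 asil2-1. Ler, at 6.30, 2.40 and 3.15 CPM, and asil2-2, at 3.70, 6.62 and 9.09 CPM, overlapped with each other.

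SPL15, which together with SPL9 acts on leaf initiation and flowering, had 4.21, 3.92 and 3.64 CPM in Col-0, 3.23, 3.81 and 1.92 CPM in asil1-1 and 2.17, 2.22 and 1.68 CPM in the libraries labelled asil2-1. The last 3 lay under every Col-0 library. In asil1-1 asil2-1 it had 8.19, 1.65 and 2.55 CPM, and replicate 1 held the highest value of all 21 libraries. Ler had 5.19, 2.40 and 3.15 CPM, asil2-2 had 3.82, 2.40 and 4.87 CPM, and asil1-1 asil2-2 had 2.59, 0 and 2.79 CPM, the last group being under Col-0 in every library. All of these values may hold reads of the overlapping AT3G57910.

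The remaining 4 genes were too low to test and are given as raw counts. SPL3 had 104 counts over the 21 libraries, of which 26 were in replicate 1 of asil1-1 asil2-1, and at most 8 in any other library. SPL4 had 41 counts, 11 of them in that same library and 1 in the 3 Col-0 libraries together. The libraries labelled asil2-1 had none, and 3 counts would be 0.465 to 0.606 CPM there. SPL9, which sets the pace of leaf initiation and of the change to adult growth, had 77 counts in 18 libraries, with 4, 5 and 4 counts in Col-0. Its other libraries held 0 to 11 counts.

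SPL13, a factor of the change from juvenile to adult leaves, had 27 counts, all in libraries of Col-0 background. They were found in 8 of these 12 libraries, with 1, 3 and 5 counts in the wild type, at 0.389 CPM over the 12. The 6 Ler libraries had 0 counts, which allows up to 0.0801 CPM over them, and the 3 libraries of the mixed background had 0 counts, which allows up to 0.224 CPM. These limits cover counting error only. As for SPL2, the transcript level and the alignment of Ler reads cannot be told apart, and here the near-identical SPL13B adds to that, since no rule for reads with several matches was given in the sources used here.

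**Figure D4:**
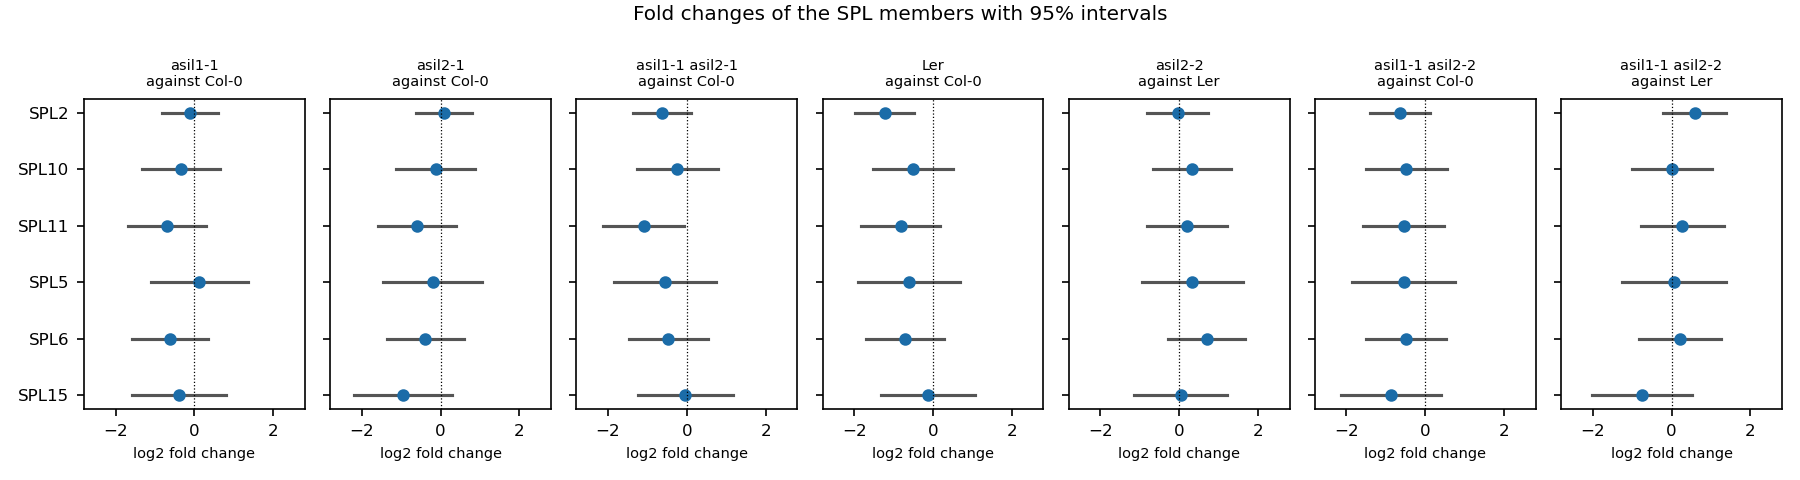
Log2 fold changes of the 6 tested SPL genes in 7 comparisons (points) with 95% intervals (lines) from edgeR's quasi-likelihood fit. The intervals of SPL2 in Ler against Col-0 (-1.98 to -0.47) and SPL11 in asil1-1 asil2-1 against Col-0 (-2.11 to -0.06) exclude 0, and neither gene passes the adjusted test.

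The single mutants in Col-0 ask whether either ASIL factor alone changes the level of these genes. In asil1-1, 1 of the 6 tested genes was higher and 5 were lower than in Col-0, with log2 fold changes from -0.70 (SPL11) to 0.12 (SPL5) and a median of -0.37, beside -0.0048 over all tested models. SPL6 was the gene whose libraries did not overlap with Col-0, and 13.8% of all tested models did not overlap. In the libraries labelled asil2-1, 1 gene was higher and 5 were lower, from -0.95 (SPL15) to 0.08 (SPL2), with a median of -0.30 beside 0.0008 over all models. SPL15 was the gene without overlap there, against 11.8% of all models. Every 95% interval in both comparisons included 0, and the intervals reached from -2.19 (SPL15 in asil2-1) to 1.36 (SPL5 in asil1-1), so changes of more than 2-fold were within what these libraries leave undetected. Without the 2 libraries that stand apart, SPL11 in asil1-1 had a log2 fold change of -0.71 ± 0.28 (edgeR, unadjusted p = 0.0183, adjusted p = 0.521). In the libraries labelled asil2-1, SPL11 then had -0.60 (edgeR, unadjusted p = 0.0455, adjusted p = 0.750) and SPL15 had -0.95 (edgeR, unadjusted p = 0.0228, adjusted p = 0.712). Seed coat markers summed to 273 to 337 CPM in asil1-1 and 208 to 266 CPM in Col-0. Of the 11 markers, 6 were higher and 5 lower in asil1-1, with log2 fold changes from -0.99 to 2.85. None was called, but 5 were at an unadjusted p under 0.05 in edgeR's test, which 2.48% of all models reached. Their part was not tested.

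In asil1-1 asil2-1 all 6 genes were lower than in Col-0, from -1.09 (SPL11) to -0.04 (SPL15), with a median of -0.52 beside 0.02 over all models. SPL2 and SPL11 did not overlap with Col-0, which held for 18.2% of all models. Without the 2 libraries that stand apart, all 6 were again lower with a median of -0.76, and the order changed. SPL6 then had a log2 fold change of -1.29 (adjusted p = 0.204) and SPL10 one of -0.92 (adjusted p = 0.188), where the whole set of libraries gave -0.47 and -0.24, and SPL15 moved from -0.04 to -0.87 (adjusted p = 0.412). Replicate 1 of this genotype held the highest SPL6, SPL10 and SPL15 values of all libraries and no SPL5 or SPL11 count. Endosperm markers summed to 80.8 to 97.6 CPM in this genotype and 42.4 to 60.7 CPM in Col-0, with 5 of 5 tested markers higher. Seed coat markers summed to 273 to 384 CPM and 208 to 266 CPM in the same order, with 10 of 11 higher, and embryo markers to 515 to 889 CPM and 878 to 982 CPM, with 6 of 10 lower. Replicate 1, which stands apart, had the lowest embryo and seed coat sums of the genotype and its highest endosperm sum. None of these markers was called. At an unadjusted p under 0.05 in edgeR's test were 2 endosperm, 4 seed coat and 4 embryo markers, beside 16.1% of all models. Their part was not tested. The interaction of asil1-1 and asil2-1, which asks whether the joint mutant differs from the sum of the single ones, ran from -0.60 (SPL2) to 1.31 (SPL15), with 4 genes above 0 and 2 below, all with intervals that included 0. With the 2 libraries left out, 2 genes were above 0 and 4 below, so no direction holds.

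In Ler, where ASIL2 counts were low in asil2-2, 5 of the 6 genes were higher in the mutant and 1 was lower, from -0.04 (SPL2) to 0.69 (SPL6), with a median of 0.26 beside 0.01 over all models. All intervals included 0, no gene was without overlap, and 13.0% of all models were. The test of a difference between the asil2-1 and asil2-2 responses was not run for these genes.

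The mixed-background asil1-1 asil2-2 embryos were compared with both wild types. Neither wild type has this mixed background. The alleles, the background and the alignment of Ler reads therefore cannot be told apart in any comparison of these embryos with a wild type. Against Col-0 all 6 genes were lower, from -0.87 (SPL15) to -0.49 (SPL6), with a median of -0.55 beside -0.02 over all models, and SPL6 and SPL15 did not overlap, against 21.5% of all models. Against Ler 5 genes were higher and 1 was lower, from -0.74 (SPL15) to 0.59 (SPL2), with a median of 0.13 beside 0.0007 over all models, and none was without overlap, against 23.9% of all models. Without the 2 libraries that stand apart, all 6 genes were again lower than in Col-0, but over a wider range, from -0.90 (SPL2, edgeR adjusted p = 0.107) to -0.11 (SPL10), with a median of -0.51. SPL5 moved from -0.55 to -0.18 and SPL15 from -0.87 to -0.53. Against Ler the range without them was -0.40 to 0.42 and the median 0.33. Seed coat markers summed to 294 to 403 CPM in this genotype, 208 to 266 CPM in Col-0 and 185 to 249 CPM in Ler. Of the 11 markers, 9 were higher and 2 lower than in Col-0, with 1 called higher. Against Ler 7 were higher and 4 lower, with 2 called higher. Endosperm markers summed to 40.6 to 69.8 CPM in this genotype and 17.8 to 33.4 CPM in Ler, with 5 of 5 tested markers higher and 1 called. Embryo markers summed to 674 to 946 CPM, against 1013 to 1107 CPM in Ler, with 9 of 10 lower and 1 called, and 878 to 982 CPM in Col-0, with 8 of 10 lower and 1 called. Replicate 2, which stands apart, had the lowest embryo sum of the genotype and its highest seed coat and endosperm sums. The part of these markers was not tested.

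Between the wild types all 6 genes were lower in Ler, from -1.23 (SPL2) to -0.13 (SPL15), with a median of -0.65 beside -0.01 over all models. SPL2 and SPL11 did not overlap, as was so for 30.4% of all models. Embryo markers summed to 1013 to 1107 CPM in Ler and 878 to 982 CPM in Col-0, without overlap and with 7 of 10 higher and none called. All 5 of 5 tested endosperm markers were lower and 1 was called. Of 11 seed coat markers, 6 were higher and 5 lower, with 1 called in each direction. The part of these 3 sets of markers was not tested. The summed level of the 10 genes was 40.7 to 48.2 CPM in Col-0, 21.6 to 36.3 CPM in Ler, and 35.7 to 39.0 CPM over the 6 libraries of asil1-1 and asil2-1. All 5 comparisons with Col-0 share its 3 libraries, in which SPL10 and SPL11 reached 15.0 and 10.7 CPM, so lower values in each are not separate evidence. The comparisons of asil2-2 and asil1-1 asil2-2 with Ler likewise share the 3 Ler libraries.

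The SPL genes without a miR156 site gave 1 call in edgeR's test over all libraries. SPL14 had 117, 147 and 122 CPM in asil1-1 asil2-2, 82.5, 95.2 and 88.6 CPM in Ler and 112, 119 and 111 CPM in Col-0. The mixed-background libraries lay above every Ler library, and against Ler SPL14 rose by a log2 fold change of 0.52 ± 0.12 (edgeR's quasi-likelihood test, adjusted p = 0.0133, higher in 3 of 3 libraries). The call was lost without replicate 2 of asil1-1 asil2-2 (0.43, adjusted p = 0.0629), without Ler replicate 1 (0.47, adjusted p = 0.111) and without Ler replicate 3 (0.52, adjusted p = 0.0688), with no filter on low counts (adjusted p = 0.0588) and with only the compared groups (adjusted p = 0.0935), and over all alternatives its adjusted p ran from 8.35e-05 to 0.111. Of the 5 tested genes of this group, 4 were lower in asil1-1, in the libraries labelled asil2-1, in asil1-1 asil2-1 and in Ler, each against Col-0, with medians of -0.16, -0.27, -0.17 and -0.29. None of these passed edgeR's test over all libraries. In Ler against Col-0, other settings called SPL14 lower, at log2 fold changes of -0.36 to -0.37. Its adjusted p was 0.0087 with DESeq2. In edgeR it was 0.014 with only the compared groups and 0.0044 without the 2 libraries that stand apart. In the same order these settings called 6.94%, 12.8% and 12.8% of all models. Without those 2 libraries SPL12 was called lower in asil1-1 asil2-2 against Col-0 (-0.51, edgeR adjusted p = 0.021).

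Genes that make or act with microRNAs, upstream of the SPL genes, gave no call in any comparison in edgeR's test. The list holds 16 genes, among them DCL1, HYL1 and SE of precursor processing, HEN1 of methylation and AGO1 of the effector complex, and all 16 were tested. In asil1-1 asil2-1 against Col-0, 5 were higher and 11 lower, the median log2 fold change was -0.29 beside 0.02 over all models, and 5 genes were at an unadjusted p under 0.05, which 16.1% of all models reached. SDN1, which degrades mature microRNAs, came nearest to a call, at 0.76 ± 0.25 in Ler against Col-0 (edgeR adjusted p = 0.0968) and -0.92 ± 0.26 in asil1-1 asil2-2 against Ler (edgeR adjusted p = 0.0570). DESeq2 called it in both, at adjusted p = 0.0323 and 0.0178. In Ler against Col-0 edgeR also called SDN1 with only the compared groups (adjusted p = 0.0246) and with the libraries that stand apart left out (adjusted p = 0.00832), settings in which SE and CBP80 were called as well, at 0.0414 and 0.0274 respectively. Of 13 known regulators of MIR156 genes, such as the MADS factors AGL15 and AGL18 and Polycomb proteins, all were tested and edgeR called none. The chromatin remodeller PKL had -0.46 ± 0.14 in asil1-1 asil2-1 against Col-0 (edgeR adjusted p = 0.179, and 0.0362 with DESeq2), but -0.26 without replicate 1 of that genotype (edgeR adjusted p = 0.327). SWN, a Polycomb methyltransferase, had 0.54 ± 0.17 in asil1-1 asil2-2 against Col-0 (edgeR adjusted p = 0.104, 0.0432 without the 2 libraries that stand apart, and 0.0292 with DESeq2). These settings also called more of all models. For SWN's comparison they called 969 and 806 in the same order, beside 417 in edgeR's test over all libraries. DESeq2 called 273 beside 4 for PKL's comparison, and 1028 beside 529 in asil1-1 asil2-2 against Ler. The precursors MIR156A to MIR156H and MIR157A to MIR157D had no model among the 26496 with counts, so their levels could not be analysed.

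Downstream, 9 genes that SPL factors are known to act on or with were followed, and 3 of them, TRY, FT and FD, passed the filter on low counts, with no call in edgeR's test. FT, the mobile flowering signal, had 6.64, 11.4 and 2.996 CPM in Col-0 and 3.15, 0.400 and 0.185 CPM in Ler, with 1 Ler library above the lowest Col-0 library. Its log2 fold change was -2.47 ± 0.93 (edgeR adjusted p = 0.163, 0.0272 without the 2 libraries that stand apart and 0.0256 with only the compared groups). It was -4.51 without Ler replicate 1 (edgeR adjusted p = 0.0573) and -1.92 without Col-0 replicate 2 (edgeR adjusted p = 0.524). TRY, a repressor of trichomes, had 1.63 ± 0.72 in asil1-1 asil2-1 against Col-0 (edgeR adjusted p = 0.281), with 12.5 CPM in replicate 1 and 2.56 and 1.70 CPM in the others, and 0.33 without replicate 1 (edgeR adjusted p = 0.921). Among targets of miR172, the microRNA that SPL9 is known to switch on, 3 of 11 listed genes and precursors were tested and edgeR called none. The precursors MIR172A to MIR172E had no model with a count. AP2, the floral organ gene, had -0.65 ± 0.20 in asil1-1 asil2-1 against Col-0 (edgeR adjusted p = 0.179) and -0.55 ± 0.20 in asil1-1 asil2-2 against Ler (edgeR adjusted p = 0.161).

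Over the 21 libraries, Pearson correlations of log2 CPM between the 6 tested genes ran from -0.387 (SPL2 with SPL15) to 0.845 (SPL10 with SPL15), and the latter was 0.142 over the 19 libraries left without the pair that stands apart. Over those 19 the correlations ran from -0.254 (SPL2 with SPL15) to 0.594 (SPL2 with SPL5, 0.235 over 21), with SPL6 and SPL15 at 0.579. The 5 genes whose log2 CPM followed that of the summed 6 tested genes most closely over 21 libraries were RGF4 (r = 0.842), AT1G27461 (0.835), AT5G02060 (0.820), TPPE (0.818) and AT5G50130 (0.799). Libraries share depth and scaling across genes, and over 19 libraries the order was led by AT1G50970 (0.862), so this list is a description of these libraries.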

How the data were processed

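The deposited files are 1 table of raw read counts per library, which the authors made from RNA-seq of late heart embryos, listing models with at least 1 count. The submitters' processing notes name Bowtie 0.12.7, edgeR 3.0.8 and the build TAIR10, with no role or order, while the counting rule, the strand and the treatment of reads with several matches were not given in the sources used here. The 21 tables were joined into 26496 models, 1 per locus, with 0 where a model was not listed. Models were kept with edgeR's filter (minimum count 10, total 15), scaled by TMM, and fitted with edgeR 4.0.16 (R 4.3.3) in a single quasi-likelihood model of 7 groups. Benjamini-Hochberg adjustment ran over 18269 models, and the threshold was 0.05. Each SE was taken as the size of the log2 fold change over the root of its F statistic, and log2 CPM used a prior count of 2. The fits were also run on simulated counts. These had the same spread for every model and the same composition in every library before changes were put in. That run cannot show how well changes in the SPL genes are detected. Levels per kb use model lengths of the RefSeq annotation of TAIR10.1, from whose genome sites and microRNAs were read, and chromosome coordinates are those of that build.

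The genes, the lists and the tests were chosen with earlier results of these data known. Genes named with values are the 10 SPL genes, with fold change and p where the unadjusted p was under 0.05, and from every other list the genes called or the lowest unadjusted p. SPL genes named at the ends of a range, and genes named for a high or low library, were chosen after their values were seen. Alternatives were another scaling (RLE), no filter, a replicate block, only the compared groups, DESeq2 1.42.0, each library left out, and, added after seeing the data, the fit without the 2 libraries that stand apart. Models summed per locus were not a separate alternative, since no locus has more than 1 model. None of 210 pairs of libraries was identical. Deposited totals ran from 1.49 M to 8.19 M counts. On the TMM-scaled library sizes used for CPM, 3 counts equal 0.358 to 1.97 CPM.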

Additional observations from a re-analysis of the deposited data

How the results depend on the processing

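The number of targeted SPL genes called was 0 in each of the 8 comparisons, and 98 of 102 alternative values were also 0. The other 4 were all in Ler against Col-0, where 1 gene, SPL2, was called with DESeq2, with only the compared groups, without the 2 libraries that stand apart and without Ler replicate 1. Leaving out each library in turn gave 0 to 1 calls there and 0 in every other comparison. With no filter on low counts all 10 genes were tested and 0 were called. Calls were rare over all models too. With 1 library left out, edgeR called 0 models in asil2-1, 2 to 4 in asil1-1 and 0 to 10 in the interaction, of 18405 to 18863 tested. The most in any setting was 2351 of 18332, in Ler against Col-0 without the 2 libraries that stand apart. These zeros are therefore near the background and say little about the SPL genes.

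The replicate block gave 0 called genes in each of the 8 comparisons. Libraries with the same replicate number shared little: the correlation of their deviations from the group means ran from -0.122 to 0.334 and exceeded 0.1 in 21 of 63 pairs, so the numbers are not taken to pair them.

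Depth limits these results. The 10 genes had 30 to 306 counts per library, and 4 could not be tested. The fold changes of SPL6, SPL10 and SPL15 in asil1-1 asil2-1 against Col-0 moved from -0.47, -0.24 and -0.04 to -1.29, -0.92 and -0.87 without the 2 libraries that stand apart, and the cause was not tested. Over all alternatives SPL11 in that comparison ran from -1.54 to -0.66 and SPL2 in Ler against Col-0 from -1.64 to -1.03.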

Other observations

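Replicate 1 of asil1-1 asil2-1, which held 26 of the 104 SPL3 counts and 11 of the 41 SPL4 counts, also held more of several flowering genes that SPL factors are known to act on than any other library. LFY, the floral meristem gene, had 8.58 CPM there and at most 1.41 CPM in the other 20 libraries. The MADS genes SOC1, AGL42 and FUL had 8.58, 7.41 and 3.90 CPM there and at most 0.926, 0.371 and 1.01 CPM elsewhere. AP1, the floral identity gene, and FT had no count in that library, where 3 counts would be 1.17 CPM. The pattern was not particular to flowering genes, since the library also held 65 of the 87 counts of MINI3, 41 of the 80 of IKU2 and 38 of the 130 of MEA, which are endosperm markers. It also held 22 of the 25 counts of SNZ, from the list of miR172 targets. The other 2 replicates of the genotype had 0 to 0.284 CPM for SOC1, FUL, LFY and AGL42. SOC1, FUL, LFY and AGL42 did not pass the filter on low counts and were not tested. All genes of this paragraph were named after their values were seen.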
